A study of Danio rerio with 6 samples.

Results

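The circadian clock genes described here are *per1a*, *per1b*, *per2*, *per3*, *nr1d1*, *nr1d2a*, *nr1d2b*, *ciarta*, *tefa* and *bhlhe41*. They were chosen by symbol from the gene table, in which each of the 10 is listed once among 32520 genes. RNA-Seq had been performed on heads of zebrafish larvae at 10 dpf, in 3 pools of *fbln1*-/- mutants (line ulg075) and 3 pools of WT controls (labelled ABwt), with 21 heads per pool by the protocol. Both genotypes came from crosses of heterozygous carriers of a CRISPR/Cas9 deletion in the *fbln1* coding region, on an AB background that also carries the ulg071 transgene by the growth protocol, and the series' design calls the controls siblings of the mutants. Fish were kept at 14 h of light and 10 h of dark. The hour at which the larvae of each pool were taken is not given in the sources used here, and clock transcripts change with that hour, so this comparison reads out genotype and sampling time together.

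The vertebrate clock is a loop of transcription. Clock and Bmal proteins (Bmal genes are listed as *arntl* in this table) bind E-box elements and switch on the *per*, *cry*, *nr1d* and *ciart* genes, whose products then repress that activity. Nr1d receptors (Rev-erb) and Ror receptors compete for a second element and set the rhythm of the Bmal genes, while Tef and related bZIP factors act through D-box elements. In zebrafish nearly every tissue holds a clock that light can set directly, and *per2* and *cry1a* are the well-known light-induced genes.

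The libraries held between 15174207 and 18721515 reads on genes. Values are normalized counts, that is, reads of a gene divided by 1 size factor per library, and 3 reads correspond to 2.60 to 3.20 normalized counts. Genes that reached 10 normalized counts in 3 or more libraries, 20691 in number, were compared on the log2(normalized count + 1) scale with limma, and all 10 clock genes passed this filter. A gene was called when its Benjamini-Hochberg adjusted p was under 0.05 and its log2 fold change was beyond 0.5 in either direction. The *fbln1* transcript itself stood at 77.4, 136 and 70.4 normalized counts in WT and at 93.2, 53.1 and 39.9 in the mutant (pools 1 to 3), a level that cannot check the labels, since a small coding deletion need not remove the mRNA. Markers of some other tissues moved with the genotype. The summed level of 5 intestine marker rows was 792 to 1114 normalized counts in WT and 15195 to 34525 in the mutant, that of 4 skin markers 12912 to 16590 and 45295 to 64173, and that of 7 neuron markers 53481 to 55305 and 45317 to 49846. For 3 muscle markers it was 21653 to 31779 and 42710 to 61098, and all 3 were called higher. For 4 cartilage markers (2 called higher) it was 1000 to 1325 and 5382 to 6649. For 2 liver markers (1 called higher) it was 8751 to 12312 and 22452 to 24016.5. The summed level of 6 photoreceptor marker rows overlapped between genotypes, at 64018 to 80841 in WT and 57225 to 74856 in the mutant. Most of that sum was the row *rho*, at 48643 to 65170 in WT and 42690 to 57716.5 in the mutant. Of the 6 rows, 3 had a log2 fold change below 0. The row *gnat2* was higher in the mutant (0.33, adjusted p = 0.026), and the other rows did not pass the test. None of these marker rows was at 0 in any library. The labelled tissue is the head, and the part of these tissues in the clock gene values was not tested.

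All 10 clock genes had a lower mean in the mutant heads, and 3 of them, the Rev-erb genes *nr1d1*, *nr1d2a* and *nr1d2b*, were called lower. Among all genes tested, 2.68% were called lower. None of the 10 was called higher, which 15.4% of all tested genes were. Without the limit on the fold change, *per2* and *tefa* were lower as well, so that 5 of 10 had an adjusted p under 0.05, beside 15.1% of all tested genes. The median log2 fold change of the 10 genes was -0.42, that of all tested genes was -0.03, and 52.3% of all tested genes had a log2 fold change below 0. Every mutant pool lay below every WT pool for 6 of the 10 genes (24.3% of all tested genes), and for none was every mutant pool above (24.5%). In bulk RNA, fewer cells of a type and less RNA per cell cannot be told apart.

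**Figure D1:**
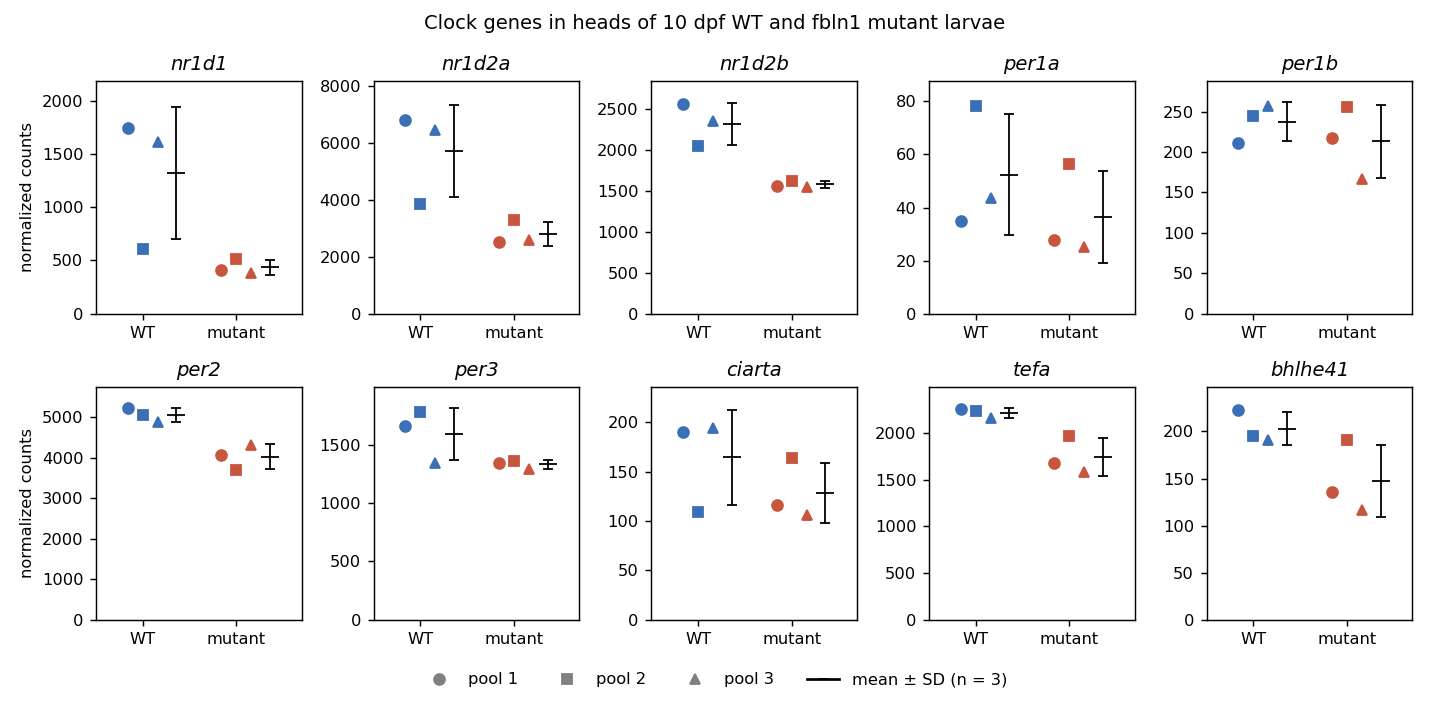
Normalized counts (vertical axes, from 0) of the 10 clock genes in each pool of WT (blue) and *fbln1* mutant heads (red), with pools 1, 2 and 3 as circles, squares and triangles and the black bars as mean ± SD (n = 3). For *nr1d1*, WT pool 2 at 606 is much nearer to the mutant pools, at 385 to 515, than to the other WT pools at 1610 and 1746.

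Of the 10, the largest difference was that of *nr1d1* (ENSDARG00000033160), the Rev-erb alpha gene, a nuclear receptor that represses Bmal and Clock genes. It stood at 1746, 606 and 1610 normalized counts in WT pools 1, 2 and 3 and at 410, 515 and 385 in mutant pools 1, 2 and 3. The mutant pools were alike and all below WT, but the WT pools were not alike, since the highest was 2.88-fold above the lowest and WT pool 2 was only 1.18-fold above the highest mutant pool. Mutant pools averaged 436 ± 68.9 and WT pools 1321 ± 623 (SD, n = 3). The log2 fold change was -1.46 with a standard error of 0.32 (adjusted p = 0.00614). Without WT pool 2, the log2 fold change was -1.95, and in a model with no variance trend the adjusted p was 0.0556.

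The *nr1d2a* gene (ENSDARG00000003820), 1 of the pair of zebrafish Rev-erb beta genes, had a like spread of WT pools. Its normalized counts were 6814, 3858 and 6474 in WT and 2512, 3299 and 2601 in the mutant. WT pool 2 was again the lowest of its group and mutant pool 2 the highest of its own, and the groups did not overlap. The mutant mean of 2804 ± 431 was 50.9% below the WT mean of 5716 ± 1617 (SD, n = 3). On the log2 scale *nr1d2a* differed by -0.99 with a standard error of 0.19 (adjusted p = 0.003). The second Rev-erb beta gene, *nr1d2b* (ENSDARG00000009594), had 2565, 2053 and 2355 normalized counts in WT and 1567, 1623 and 1549 in the mutant. Its mutant pools lay close together, and all were below WT. The log2 fold change of *nr1d2b* was -0.55 (standard error 0.09, adjusted p = 0.00102). Without WT pool 1 it was -0.48 and no longer past the limit of 0.5, with an adjusted p of 0.00619.

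The *per* genes code for Period proteins, which join cryptochromes to repress Clock and Bmal. The light-induced *per2* (ENSDARG00000034503) had 5238, 5054 and 4875 normalized counts in WT and 4071, 3692 and 4319 in the mutant. All mutant pools were below all WT pools, by a mean of 20.3%, and the log2 fold change of *per2* was -0.33 (standard error 0.08, adjusted p = 0.00909). For *per3* (ENSDARG00000010519), values were 1659, 1776 and 1341 in WT and 1341, 1363 and 1288 in the mutant. WT pool 3 lay among the mutant pools, and the log2 fold change of -0.25 did not pass the test (95% interval -0.47 to -0.03, adjusted p = 0.0764).

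No difference between genotypes passed the test for either *per1* gene. For *per1b* (ENSDARG00000012499), WT pools had 211, 245 and 257 normalized counts and mutant pools 217, 256 and 166. Mutant pools 1 and 2 lay within the range of WT and mutant pool 3 below it, and the log2 fold change was -0.17 (95% interval -0.52 to 0.18, adjusted p = 0.434). The *per1a* gene (ENSDARG00000056885) had the lowest counts of the 10, with 35.1, 78.2 and 43.7 in WT and 27.7, 56.3 and 25.1 in the mutant. In both genotypes pool 2 was highest, 2.23-fold above the lowest WT pool and 2.24-fold above the lowest mutant pool. That spread was wider than the difference between genotypes, and the log2 fold change of *per1a* was -0.53 with a 95% interval from -1.34 to 0.29 (adjusted p = 0.295).

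The *tefa* gene (ENSDARG00000039117) codes for a bZIP factor that acts on D-box elements, among them those of *per2* in zebrafish. It had 2262, 2234 and 2158 normalized counts in WT and 1676, 1974 and 1583 in the mutant, so that the groups did not overlap. Its log2 fold change was -0.35 (standard error 0.09, adjusted p = 0.0115). The *bhlhe41* gene (ENSDARG00000041691), whose mammalian counterpart Dec2 is an E-box repressor, had 223, 195.1 and 191 in WT and 135, 190.6 and 117 in the mutant. Mutant pool 2 reached the lowest WT pool to within less than 1 normalized count, and the log2 fold change of -0.48 narrowly missed the threshold (95% interval -0.87 to -0.10, adjusted p = 0.0547). Dropping single libraries moved the value of *bhlhe41* between -0.68 and -0.33, and its adjusted p between 0.0109 and 0.173. The end at -0.68, where the gene was called lower (adjusted p = 0.0109), was reached without mutant pool 2. That pool was the mutant pool nearest to WT, so its removal widens the difference by construction.

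For *ciarta* (ENSDARG00000058094), whose mouse counterpart represses Clock and Bmal, WT pool 2 was again low and mutant pool 2 again high. WT pools had 190, 109 and 194 normalized counts and mutant pools 116, 164 and 107. WT pool 2 therefore lay among the mutant pools. The log2 fold change was -0.33 (95% interval -0.85 to 0.19, adjusted p = 0.303). With each library left out in turn, it ran from -0.60 to -0.19 and the adjusted p from 0.0444 to 0.633. The value of -0.60 was that without WT pool 2, where *ciarta* was called lower (adjusted p = 0.0444). Leaving out a WT pool that lay among the mutant pools widens the difference by construction.

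The position of the pools numbered 2 was a feature of several clock genes. Mutant pool 2 was the highest mutant pool for 9 of the 10 clock genes, all but *per2*, for which it was the lowest. Among all tested genes it was highest for 32.0%. WT pool 2 was the lowest WT pool for *nr1d1*, *nr1d2a*, *nr1d2b* and *ciarta*, the highest for *per1a* and *per3*, and in between for the other members. It was lowest for 35.7% of all tested genes. In the spread between pools of a genotype, *nr1d1* and *per1a* stood at percentiles 95.2 and 94.8 of all tested genes and *per2* at 17.3. With both pools numbered 2 left out, a choice made after these values were seen, the log2 fold changes of *nr1d1*, *nr1d2a* and *nr1d2b* were -2.08, -1.38 and -0.66. In that comparison *ciarta* (-0.78) and *bhlhe41* (-0.71) were also called lower, which gave 5 called genes in place of 3. Of all tested genes, 326 were called lower there, against 555 with all pools. Where a pool numbered 2 lay towards the other genotype, leaving it out widens the difference by construction. The added calls, made with fewer pools, are therefore no further support. Mutant pool 2 had 15894081 reads on genes, within the range of the other libraries. Its median log2 level of 7 neuron markers stood 0.14 below the mean of such medians over all libraries. In mutant pools 1 and 3 that median stood 0.11 and 0.05 below. The marker at the median was *elavl3*, *elavl4* and *snap25b* in mutant pools 1, 2 and 3, so these values compare different genes. The part of these differences in the clock genes was not tested.

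**Figure D2:**
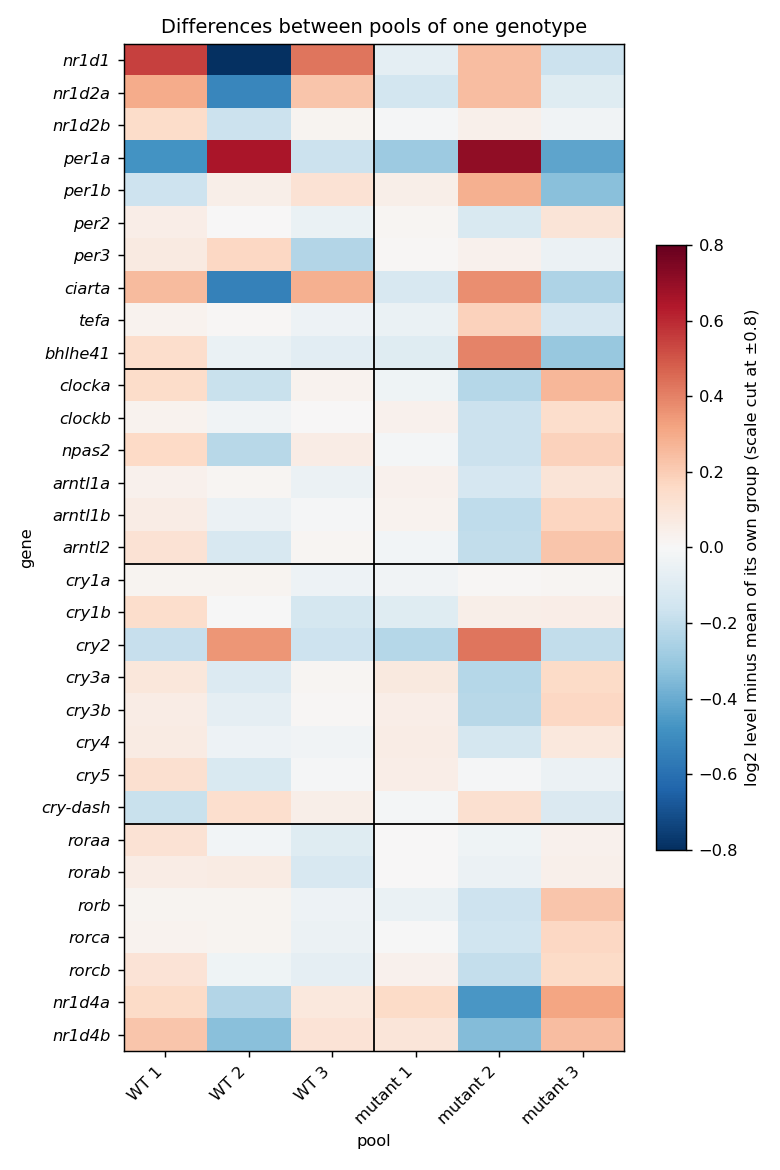
Log2 level of each clock gene minus the mean of its own genotype (colour, cut at ±0.8) in the 3 WT and 3 mutant pools, for the 10 members, the activator genes, the cryptochromes and photolyases, and the Ror and Nr1d4 receptors, separated by black lines. WT pool 2 is low for *nr1d1* and *ciarta* and high for *per1a* and *cry2*, and mutant pool 2 is low for all 6 activator genes.

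Among the activators, the order of the pools was mostly the same from gene to gene. The activator list holds *clocka*, *clockb*, their relative *npas2* and the Bmal genes *arntl1a*, *arntl1b* and *arntl2*. Mutant pool 2 was the lowest mutant pool for all 6, and mutant pool 3 the highest for all 6. WT pool 2 was the lowest WT pool for 5 of 6, and WT pool 1 the highest for all 6. The order of the mutant pools was not particular to the activators, since mutant pool 2 was also lowest and mutant pool 3 highest for all 7 genes of the Ror and Nr1d4 list. Among all tested genes, mutant pool 2 was lowest for 38.1% and mutant pool 3 highest for 35.4%. Of the *per* genes, *per1a*, *per1b* and *per3* were highest in mutant pool 2, while *per2* was lowest there.

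Between genotypes, the activators did not move against the repressors. All 6 had a lower mean in the mutant and an adjusted p under 0.05, beside 15.1% of all tested genes. Their log2 fold changes ran from -0.51 to -0.25. Only *arntl2* was called, with 1581, 1332 and 1472 normalized counts in WT and 1008, 893 and 1197 in the mutant (log2 fold change -0.51, adjusted p = 0.00591), and it fell short of the limit of 0.5 without WT pool 1 (-0.45), mutant pool 1 (-0.50) or mutant pool 2 (-0.41), and also with TMM scaling (-0.48), edgeR (-0.46) and DESeq2 (-0.49). For *clocka*, WT pools had 3032, 2420 and 2796 and mutant pools 2037, 1785 and 2511. This was the activator whose groups overlapped, with a log2 fold change of -0.39 (adjusted p = 0.0315). In the model with no variance trend, *arntl2* alone of the 6 kept an adjusted p under 0.05 (0.0487). Without WT pool 1, 2 or 3, the number of the 6 that kept it was 1, 5 and 1. Without mutant pool 1, 2 or 3, that number was 3, 3 and 6.

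Of the 8 cryptochrome and photolyase genes, none was called and 5 were lower at an adjusted p under 0.05 (15.1% of all tested genes). These were *cry1a*, *cry1b*, *cry3b*, *cry4* and *cry-dash*. Without WT pool 1, 2 or 3, the number lower at that adjusted p was 2 in each case. Without mutant pool 1, 2 or 3 that number was 3, 3 and 6, and with no variance trend it was 1. The light-induced *cry1a* was very even within each genotype, with 4164, 4169 and 3987 normalized counts in WT and 3235, 3323 and 3338 in the mutant. Its log2 fold change was -0.32 (standard error 0.07, adjusted p = 0.00486), close to that of *per2*. In contrast, *cry2* was highest in pool 2 of both genotypes, with 313, 454 and 318 in WT and 286, 452 and 292 in the mutant. The log2 fold change of *cry2* was -0.09 (95% interval -0.51 to 0.33, adjusted p = 0.758).

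All 7 receptor genes of the Ror and Nr1d4 list were lower at an adjusted p under 0.05 (15.1% of all tested genes). Their groups did not overlap (every mutant pool below WT for 24.3% of all tested genes), and 3 were called lower (2.68%). The 3 were *nr1d4b* (-0.77, adjusted p = 0.00555), *nr1d4a* (-0.60, adjusted p = 0.0264) and *rorb* (-0.54, adjusted p = 0.00446). The call of *nr1d4a* was lost without WT pool 1 (-0.52, adjusted p = 0.104), WT pool 3 (-0.56, adjusted p = 0.0875) or mutant pool 2 (-0.37, adjusted p = 0.0589). The change of *rorb* was under the limit of 0.5 without mutant pool 2 (-0.46) and without both pools numbered 2 (-0.45), and just under it with edgeR, while *nr1d4b* missed the threshold with no variance trend (adjusted p = 0.0519). Of 10 tested genes of the list of D-box bZIP factors and other repressors, 8 were lower at an adjusted p under 0.05 (15.1%). Of the 10, 3 were called lower (2.68% of all tested genes). The 3 were *nfil3-6*, a relative of the mammalian D-box repressor Nfil3, with a log2 fold change of -0.83 (adjusted p = 0.000174), and the Tef relatives *dbpb* (-0.66, adjusted p = 0.000855) and *dbpa* (-0.53, adjusted p = 0.00338). The change of *dbpa* was just under the limit of 0.5 without WT pool 2 (-0.50) or mutant pool 2 (-0.47). In that list *nfil3-3* and *nfil3-4* were below the filter on low counts. Of 9 tested kinase and ubiquitin ligase genes that act on Per and Cry proteins, 4 were lower at an adjusted p under 0.05 (15.1%). They were led by *fbxl3a* (-0.46) and *csnk1e* (-0.34), and none of the 9 was called.

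**Figure D3:**
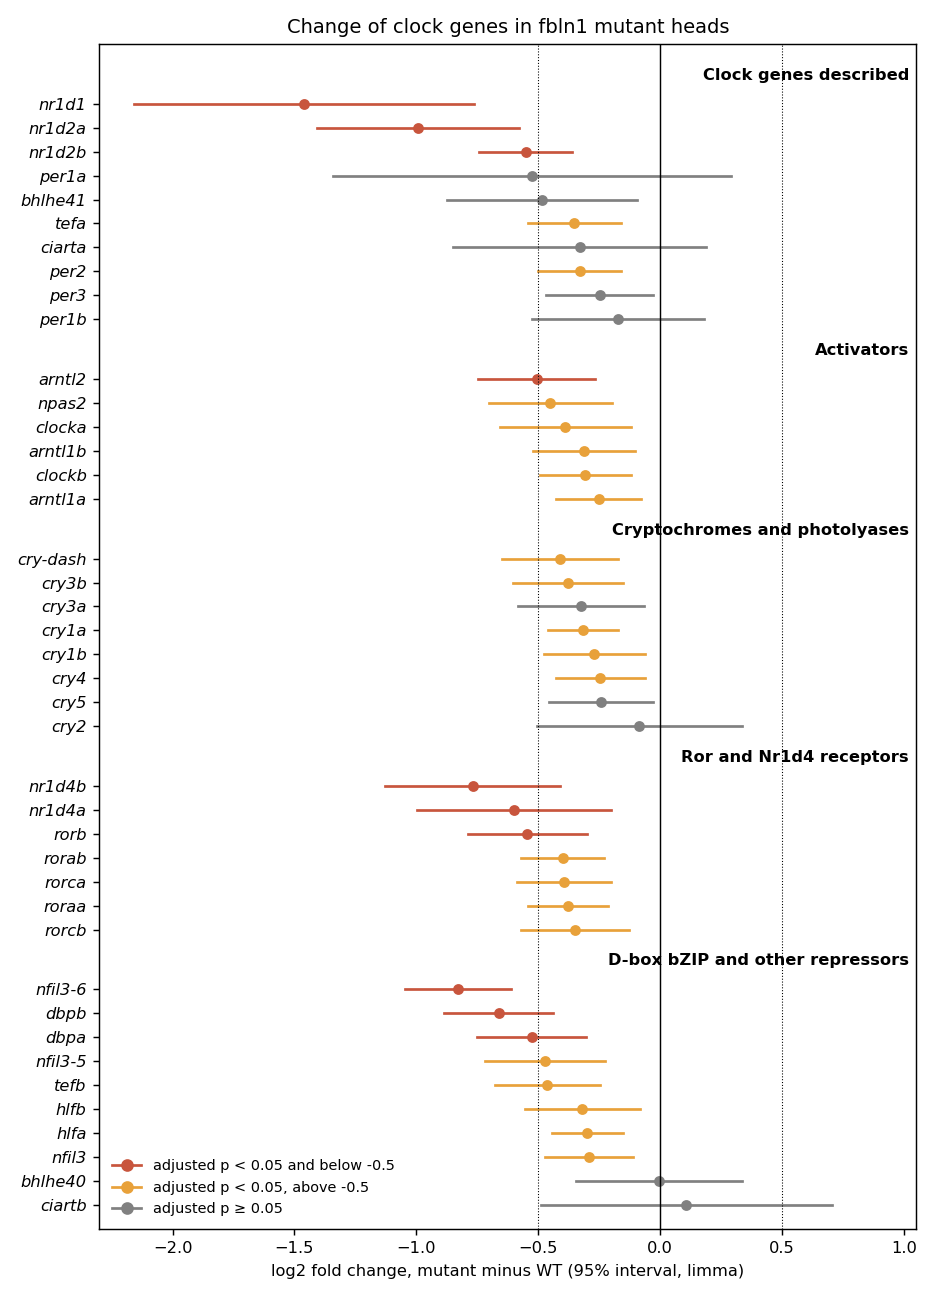
Log2 fold change (horizontal axis, mutant minus WT, limma) with its 95% interval for the 10 members and 4 other clock lists, where the dotted lines mark the limit of 0.5 on either side. Red genes were called lower, orange genes had an adjusted p under 0.05 only, and grey genes had an adjusted p of 0.05 or more, and *ciartb* is the only point above 0.

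Among outputs of the clock, *cipca*, a gene whose mammalian counterpart binds Clock, and *cdkn1d*, a cyclin-dependent kinase inhibitor, were called lower. The values were -0.88 for *cipca* (adjusted p = 0.0128) and -0.54 for *cdkn1d* (adjusted p = 0.000481). Neither call was firm, since that of *cipca* was lost without WT pool 1 (-0.80, adjusted p = 0.0558) and that of *cdkn1d* without mutant pool 2 (-0.49). The *wee1* gene, a mitotic kinase gene named after its values were seen, was the output gene past an adjusted p of 0.05 in the other direction (0.44, adjusted p = 0.0127). Of the 4 genes listed as light-induced or repair genes, *ddb2* (-0.31, adjusted p = 0.0148) and *lonrf1l* (-0.39, adjusted p = 0.0232) were lower and not called. The remaining genes of that list had log2 fold changes above 0 and did not pass the test. Over the 7 lists of other clock genes, 36 of 52 tested genes were lower at an adjusted p under 0.05, 1 was higher, and 9 were called lower, beside 15.1%, 18.9% and 2.68% of all tested genes. The 52 genes had a median of -0.32 on the log2 scale. The count of 36 depended on the setting. With 1 pool left out it ran from 18 (without WT pool 1) to 37 (without mutant pool 3), and it was 17 with no variance trend. Of all 20691 tested genes, 1254, 3648 and 1145 were lower at that adjusted p in those 3 settings.

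The 7 neuron markers had a median log2 fold change of -0.15. Of these, *snap25b* (-0.30) and *syt1a* (-0.32) were lower at an adjusted p under 0.05, *gap43* was higher (0.49, adjusted p = 0.00811), and the other 4 did not pass the test. The clock genes were compared again after each library was shifted by the median log2 level of these 7 markers. That median was taken relative to its mean over all libraries, and the marker at the median was not the same gene in every library. This scale was added after the marker values were seen. It moved the median of all tested genes from -0.03 to 0.18, and the median of the 10 clock genes was then -0.22. The log2 fold changes of *nr1d1* and *nr1d2a* were -1.26 (adjusted p = 0.00583) and -0.79 (adjusted p = 0.00397), and both were still called lower. That of *nr1d2b* was -0.35 (adjusted p = 0.00783), below the limit on the fold. On this scale *per2* (-0.13, adjusted p = 0.267) and *tefa* (-0.15, adjusted p = 0.326) did not pass the test, and *per1b* was at 0.03. Of the 6 activators only *arntl2* had an adjusted p under 0.05 (-0.30, adjusted p = 0.0335). None of the 8 cryptochrome and photolyase genes had one, *cry1a* among them (-0.11, adjusted p = 0.329). Such a shift moves all genes of a library alike, so it leaves the position of the clock genes relative to other genes nearly as it was by construction.

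**Figure D4:**
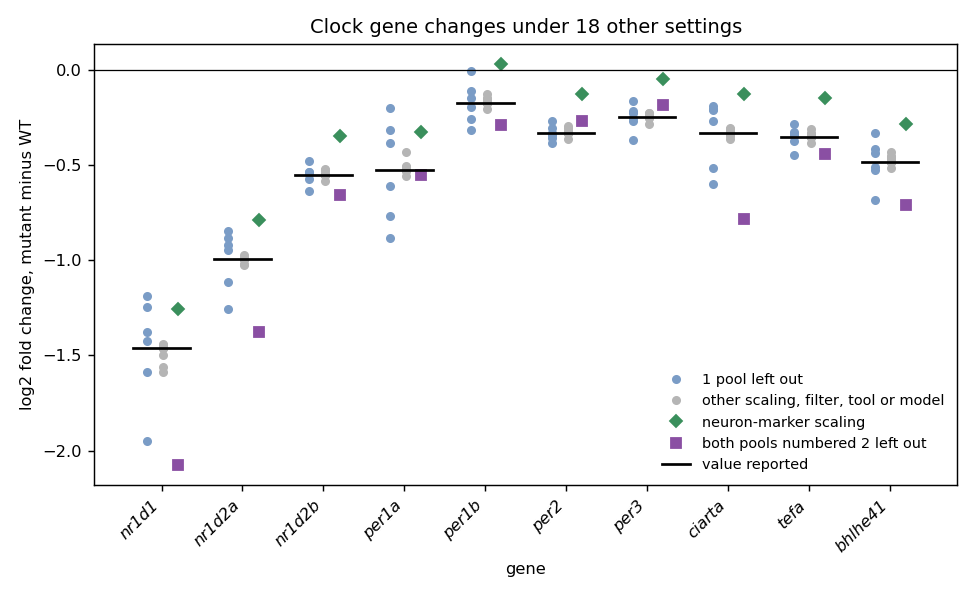
Log2 fold change (vertical axis, mutant minus WT) of the 10 clock genes as reported (black lines), with each pool left out in turn (blue), under other scalings, filters, tools or models (grey), with neuron-marker scaling (green) and without both pools numbered 2 (purple). The values of *nr1d1* stay below -1 in every setting shown, while *per1b* crosses 0 with neuron-marker scaling.

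Profiles over the 6 libraries were compared by the root-mean-square difference of log2 levels after each gene's mean was subtracted. Of 20690 genes compared with *nr1d1*, *CYTH3* was nearest (0.31) and *nr1d2a* second (0.33). The gene nearest to *nr1d2a* was *klf9* (0.13), which codes for a Krüppel-like transcription factor. No member had another member as its nearest gene. For *nr1d2a* the closest member, *nr1d2b*, was at rank 74. For *bhlhe41* the closest member, *tefa*, was at rank 42, and for *per2* the closest member, *per3*, was at rank 4980. Profiles of genes that differ little between libraries lie close together whatever the genes are, so ranks are not comparable between members.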

How the data were processed

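Heads of 10 dpf larvae were sequenced single-end as TruSeq stranded mRNA libraries. The labels and their protocols give heads as the tissue, whereas the paper's library methods speak of whole larvae. By the paper's methods, read alignment to GRCz11 and counting used nf-core rnaseq and an Ensembl annotation, and the submitters' processing notes name DESeq2. The values deposited by the authors are a normalized signal, gene counts divided by 1 size factor per library. Whole reads were recovered from the step between values, and 100% of values in each library were whole to within 0.1 read. The authors' table of their own comparison (fold changes, p-values and group means) was not used. Column names carry roman numerals, which were read as the replicate numbers of the titles.

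Log2(normalized count + 1) values were fitted with limma 3.58.1 (R 4.3.3), with genotype as the only term and a variance trend, and fold changes of genes with low counts are understated on this scale. Alternatives included edgeR 4.0.16 and DESeq2 1.42.0 on the recovered reads, other scalings and filters, a replicate block and each library left out. The fits were tested on simulated counts in which a small part of the genes changed, in both directions. Those changes were larger than most described here, so that test does not cover small differences or a shift of many genes in 1 direction. Members and lists were chosen with earlier results of these data known. All members are named, as are tested activators and cryptochromes. Of other lists, called genes and the 2 genes with the lowest p may be named. Outside that rule, *fkbp5* and *TSC22D3* are named because they did not pass the test. Of the symbols listed, *nfil3-2*, *fbxl21*, *btrc* and *tmtopsa* were not matched in the table. No sequences were analysed here, and promoter motifs planned for a search were not searched.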

Additional observations from a re-analysis of the deposited data

How the results depend on the processing

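Under 18 alternatives, 833 of 899 values of 50 named genes kept their direction and their side of the threshold, 37 were weaker, 24 stronger and 5 had the other sign. Those 5 were genes that passed no test: *cry2* without WT pool 2 (0.089), mutant pool 1 (0.029) or mutant pool 3 (0.014) and with neuron-marker scaling (0.12), and *per1b* with neuron-marker scaling (0.031). With each library left out, *cry2* ranged from -0.30 to 0.089. Of the clock genes, 3 were called lower as reported and 5 with both pools numbered 2 left out, and the 5 past an adjusted p of 0.05 became 2 with no variance trend and 3 with neuron-marker scaling. With each library left out in turn, 2 to 4 were called lower, 0 were called higher and 5 to 6 had an adjusted p under 0.05. A replicate block gave 3 clock genes called lower and 7 with an adjusted p under 0.05, adding *per3* and *bhlhe41*. The series' design sets each mutant batch against its WT siblings, but no source used here says that equal numbers mark a shared batch, and deviations of same-numbered pools correlated at 0.04, 0.15 and 0.04, with WT pool 1 closest to mutant pool 3 (0.05). Of all genes, 555 were called lower as reported, 320 with edgeR (3335 called higher), 439 with DESeq2, 40 with neuron-marker scaling, 326 without both pools numbered 2, 255 without WT pool 1, 263 without mutant pool 2 and 1105 without mutant pool 3. Genes called higher made up 85.2% of calls as reported and 99.1% with neuron-marker scaling. With neuron-marker scaling, 7 of the 52 other clock genes were lower at an adjusted p under 0.05 and 3 were called lower. Of all 20691 tested genes, 313 were lower at that adjusted p on this scale, against 3116 as reported, and 40 were called lower. The causes were not tested. With a minimum of 50 normalized counts *per1a* was not tested, and at its 25.1 to 78.2 normalized counts only large differences could be seen. Neuron-marker scaling and leaving out both pools numbered 2 were chosen after seeing the data.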

Other observations

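The list of glucocorticoid response holds 5 symbols in 6 rows. Of these rows, 4 were lower in the mutant heads at an adjusted p under 0.05, beside 15.1% of all tested genes. Of the 6, 3 were called lower, beside 2.68% of all tested genes. The *klf9* gene, a glucocorticoid-induced transcription factor gene and the nearest profile to *nr1d2a*, had 2645, 1840 and 2651 normalized counts in WT and 1237, 1357 and 1078 in the mutant (log2 fold change -0.94, adjusted p = 0.000647). The *tsc22d3* gene, also induced by glucocorticoids, changed by -0.63 (adjusted p = 0.0013). The *hsd11b2* gene, which codes for an enzyme that inactivates cortisol, changed by -0.58 (adjusted p = 0.000421). A second row of the *tsc22d3* symbol, *TSC22D3* (ENSDARG00000105498), was at 0.12 (adjusted p = 0.726) and *fkbp5* at -0.38 (adjusted p = 0.243). Neither passed the test. With neuron-marker scaling *klf9* was still called (-0.74), while *tsc22d3* (-0.43) and *hsd11b2* (-0.38) were not. Of 14 immediate-early genes, 5 were lower at an adjusted p under 0.05 (15.1% of all tested genes) and 1, *fosaa*, was called lower (-0.72, adjusted p = 0.012; 2.68% of all tested genes). The call of *fosaa* was lost without WT pool 1 (adjusted p = 0.0572) or WT pool 3 (adjusted p = 0.0532). Without WT pool 1, 2 or 3, the number of the 14 lower at an adjusted p under 0.05 was 0, 7 and 0. Without mutant pool 1, 2 or 3 that number was 4, 3 and 2. It was 2 with no variance trend and 1 with neuron-marker scaling.

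In the pineal list, *aanat2*, which codes for the enzyme that drives the melatonin rhythm of the pineal gland, was called lower. It had 1342, 924 and 1029 normalized counts in WT and 648, 612 and 789 in the mutant (log2 fold change -0.68, adjusted p = 0.00451). The pineal photopigment gene *exorh* had the other sign and did not pass the test, with 129, 86.7 and 113 in WT and 157, 124 and 152 in the mutant (0.40, adjusted p = 0.104). With neuron-marker scaling, *aanat2* was at -0.47 and not called, and *exorh* was called higher (0.61, adjusted p = 0.0187). Of 11 tested genes for photopigments outside the visual opsins, all had a log2 fold change below 0 (52.3% of all tested genes). Only *opn4xb*, a melanopsin gene, had an adjusted p under 0.05 (-0.497, adjusted p = 0.0198), and it was not called. At that adjusted p 15.1% of all tested genes were lower. None of the 11 passed it without WT pool 1, WT pool 2, mutant pool 1 or mutant pool 2. The same held with no variance trend and with neuron-marker scaling. Without WT pool 3 (-0.52) or mutant pool 3 (-0.66), *opn4xb* was called lower. The median of the 11 was -0.50, and without mutant pool 2 it was -0.22.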
